A study of Homo sapiens with 4 samples.

Results

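The 10 genes described here were FOS, FOSB, JUN, JUNB, JUND, DUSP1, EGR1, ATF3, ZFP36 and IER2, which encode subunits of the AP-1 transcription factor and other products of immediate-early genes. They were chosen by name, and every probe set that the array's platform annotation assigned to 1 of these genes alone was kept, which gave 22 of the 54675 probe sets and 10 of the 19775 named genes. The data are oligonucleotide array measurements of PLC8024, a human hepatocellular carcinoma (HCC) cell line, after flow cytometry had separated its cells into a CD133+ and a CD133- population. CD133 is a membrane protein by which tumour-initiating liver cancer cells are often selected. Each population was deposited as 1 column of RMA values on the log2 scale and 1 column of MAS5 intensities on a linear scale. The labels do not say whether the RMA and MAS5 columns of a population came from the same array. They were treated as 2 processings of 1 population and not as replicates, so agreement between them is no replicate check. No difference below has a replicate or a test, and population, sort and array cannot be told apart. The line itself, the sorting and the extraction of total RNA were common to both populations. The sources used here do not give the time between sorting and lysis, or any stimulus.

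Immediate-early genes are transcribed within minutes of a stimulus, from transcription factors already present in the cell, and their mRNAs are short-lived. AP-1 is a dimer of basic leucine zipper proteins: Fos proteins must pair with a Jun protein to bind DNA, while Jun proteins can also pair with each other. MAP kinase signalling switches the genes on, and 2 of their own products, the phosphatase DUSP1 and the RNA-binding protein ZFP36, feed back on the kinases and on the mRNAs. In liver the same genes respond to partial hepatectomy, growth factors and the handling of cells during isolation.

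The promoters of 5 members are shown because these members included the largest differences towards CD133- (FOS, DUSP1), a gene whose processings disagreed (EGR1) and the genes with no lower value in RMA (JUN, JUND). All 10 members had a window in the RefSeq promoter table of build GRCh38.p14, and ATF3 had 2. Capitals mark letters that match a searched pattern on either strand, in the 250 bases before the start site. The patterns were TGACNTCA (the cyclic AMP response element, CRE, and its close variants) and TGACGT (the CRE core, which overlaps TGACNTCA in a full CRE). TGANTCA (the AP-1 site and, since N is any base, its close variants) and the CArG box that serum response factor binds were also searched.
FOS promoter, chr14:75278578-75278827, plus strand: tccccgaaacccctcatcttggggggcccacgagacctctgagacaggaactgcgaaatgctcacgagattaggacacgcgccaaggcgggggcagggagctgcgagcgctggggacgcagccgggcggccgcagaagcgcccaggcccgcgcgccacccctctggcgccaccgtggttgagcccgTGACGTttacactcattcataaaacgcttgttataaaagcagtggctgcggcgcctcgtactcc
DUSP1 promoter, chr5:172771196-172771445, minus strand: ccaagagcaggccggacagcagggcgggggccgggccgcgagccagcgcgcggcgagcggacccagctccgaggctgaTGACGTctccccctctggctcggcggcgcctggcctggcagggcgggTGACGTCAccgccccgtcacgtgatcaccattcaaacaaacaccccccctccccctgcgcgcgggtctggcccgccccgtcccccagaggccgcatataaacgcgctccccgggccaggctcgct
EGR1 promoter, chr5:138465229-138465478, plus strand: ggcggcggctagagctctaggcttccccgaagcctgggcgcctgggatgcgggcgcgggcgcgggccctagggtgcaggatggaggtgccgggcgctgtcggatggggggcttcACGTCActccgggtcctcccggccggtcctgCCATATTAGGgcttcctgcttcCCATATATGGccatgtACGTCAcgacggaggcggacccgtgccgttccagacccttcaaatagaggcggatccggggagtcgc
JUN promoter, chr1:58784048-58784297, minus strand: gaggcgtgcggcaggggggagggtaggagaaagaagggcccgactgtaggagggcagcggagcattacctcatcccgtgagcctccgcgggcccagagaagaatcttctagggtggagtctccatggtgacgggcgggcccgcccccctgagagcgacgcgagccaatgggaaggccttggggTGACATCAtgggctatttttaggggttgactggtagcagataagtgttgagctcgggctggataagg
JUND promoter, chr19:18281623-18281872, minus strand: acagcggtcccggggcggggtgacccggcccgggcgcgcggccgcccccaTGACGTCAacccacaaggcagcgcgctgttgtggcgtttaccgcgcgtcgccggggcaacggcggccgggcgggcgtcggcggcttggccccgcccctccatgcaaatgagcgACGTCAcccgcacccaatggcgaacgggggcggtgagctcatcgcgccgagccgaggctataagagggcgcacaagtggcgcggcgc

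TGACGT was found in 5 members, FOS, FOSB, JUND, DUSP1 and EGR1, against 7.1% of 35116 promoter windows. In FOS its first base lay 64 bases before the start, and in FOSB 60 bases before it. TGACNTCA was found in 4 members, JUN, JUND, DUSP1 and ATF3, against 6.87% of windows. In JUN the matching letters were TGACATCA, which begin 67 bases before the start. Within these 250 bases the CArG box was found in EGR1 alone among the members, as CCATATTAGG and CCATATATGG, against 1.16% of windows. Sites further upstream were not searched in any member. No member window held TGANTCA, which 6.57% of windows held. The windows of JUNB, ZFP36 and IER2 held none of the searched letters. Matches thus lay both in members with lower values in CD133+, such as FOS and DUSP1, and in JUN and JUND, whose RMA values were higher in CD133+ in every probe set. A match describes letters in the window and is not evidence of a bound site.

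Each RMA and MAS5 column held 54675 values. RMA medians were 5.16 for CD133+ and 5.14 for CD133-, and MAS5 medians were 86.0 for CD133+ and 86.1 for CD133-. The probe set whose RMA values had the highest mean stood for its gene, and the gene was above the floor when the larger of these RMA values was at or over that column's median. PROM1, the gene of CD133, had RMA values of 10.35 for CD133+ and 6.04 for CD133-, in the direction of the labels. Of the hepatocyte lineage markers, 8 of 10 had a single-gene probe set, and all 8 were above the floor. SERPINA1 had RMA values of 13.61 for CD133+ and 13.56 for CD133-, and KRT18 had 12.58 for CD133+ and 12.91 for CD133-. Of the 8, 5 had an RMA difference below 0, against 49.9% of all genes above the floor, and 3 had one above 0. At 2-fold 2 of the 8, ALB and APOA1, were lower in CD133+ and none higher, against 1.09% and 2.25% of all genes. ALB, which encodes albumin, had RMA values of 7.70 for CD133+ and 11.12 for CD133-. APOA1, an apolipoprotein gene, had 6.60 for CD133+ and 8.39 for CD133-. Their probe sets differed in size, with RMA differences from -3.42 to -0.22 over the 4 of ALB and from -1.87 to -0.66 over the 3 of APOA1. Of the markers of other cells, 4 of 8 leukocyte, 2 of 8 endothelial, 5 of 9 fibroblast and stellate and 2 of 2 erythroid markers found were above the floor. The pan-leukocyte gene PTPRC was under it, with RMA values of 3.01 for CD133+ and 2.94 for CD133-, and so was the endothelial gene CDH5, with 3.23 for CD133+ and 3.06 for CD133-. The summed MAS5 intensity of the leukocyte markers was 10897 in CD133+ and 4362 in CD133-, of which LYZ, the lysozyme gene, made up 10257 in CD133+ and 4008 in CD133-. That of the endothelial markers was 466.4 in CD133+ and 1028 in CD133-, of which PECAM1 made up 268.0 in CD133+ and 912.9 in CD133-. That of the fibroblast and stellate markers was 1258 in CD133+ and 755.7 in CD133-, and that of the erythroid markers was 210.1 in CD133+ and 173.7 in CD133-. No marker was at 0, and the part of these markers in the results below was not tested.

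A gene was counted when it was above the floor and at least 2-fold higher or lower in RMA and in MAS5 alike. All 10 members were above the floor in both populations. In a bulk population, fewer cells that express a gene and less of its RNA per cell cannot be told apart. No member was counted at 2-fold, against 2.25% of the 13116 genes above the floor that were higher and 1.09% that were lower. At 1.5-fold in both processings 2 members, FOS and DUSP1, were counted as lower in CD133+ and none as higher, against 4.17% of genes lower and 5.32% higher. In RMA alone 4 members were lower at 1.5-fold, against 5.22% of genes. The RMA difference was below 0 in 8 of 10 members, against 49.9% of genes, the MAS5 difference in 7, against 49.5%, and both differences in 7, against 39.1%. The RMA difference was -0.5 or lower in 4 members, FOS, DUSP1, ATF3 and ZFP36, against 7.3% of genes. The median RMA difference of the members was -0.44, and that of all genes above the floor was 0.00. In MAS5 the member median was -0.42. The members and the lists were chosen with earlier results of these data known, so these counts describe the 10 genes and carry no test.

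**Figure D1:**
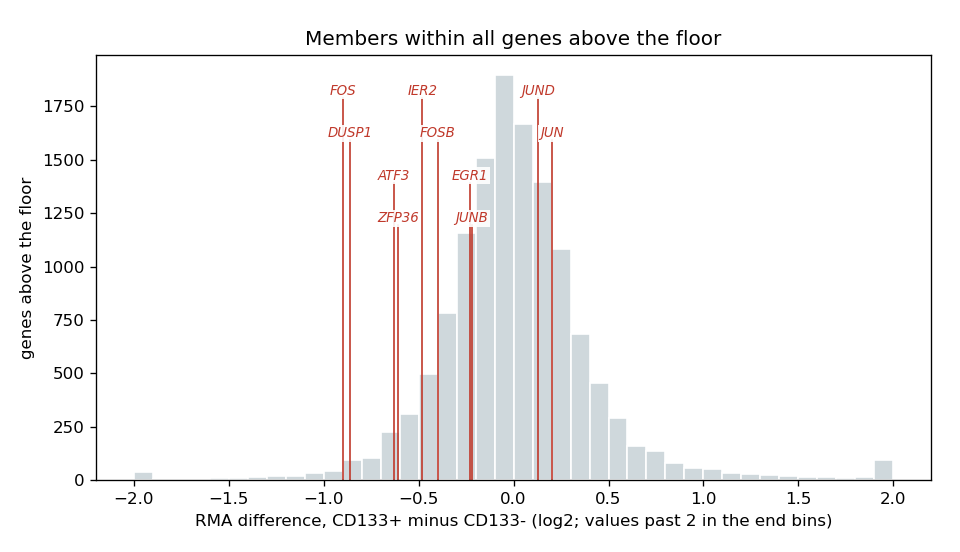
Histogram of the RMA difference (CD133+ minus CD133-, log2) over the 13116 genes above the floor, with a red line at each of the 10 members. FOS and DUSP1 lie at -0.90 and -0.86, and JUN and JUND are the members above 0.

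The spread between probe sets of one gene was used as a rough scale for the differences. It is the spread of a gap between 2 differences. It mixes measurement error with differences between the transcripts that the probe sets detect. In the 6170 genes with 2 or more probe sets over the floor, the gap between the RMA differences of the brightest 2 had an SD of 0.35, and 95% of gaps were at most 0.70 in size. The MAS5 gaps had an SD of 0.79, and 95% of them were at most 1.64. The absolute RMA difference was above the SD in 6 members, FOS, DUSP1, ATF3, ZFP36, IER2 and FOSB, and above the 95% limit in FOS and DUSP1. In MAS5 only FOS and DUSP1 were above the SD, and no member was above the 95% limit. Variation between sorts, cultures or arrays is not part of this scale.

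**Figure D2:**
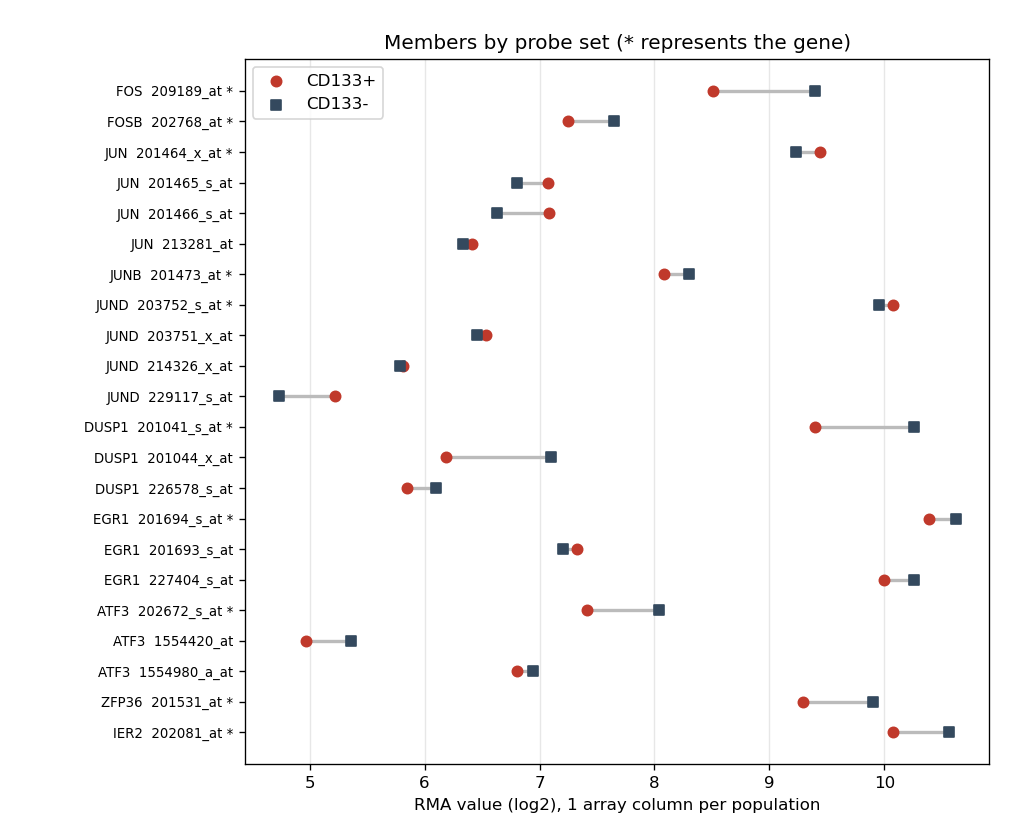
RMA value (log2) of each of the 22 probe sets in CD133+ (circles) and CD133- (squares), 1 array column per population, with an asterisk on the probe set that represents its gene. The CD133+ value is the lower one in 13 probe sets, including all 3 of DUSP1 and all 3 of ATF3, and the higher one in all 4 of JUN.

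Of the Fos subunits, FOS had the larger difference. Its 1 probe set, 209189_at, had RMA values of 8.51 for CD133+ and 9.40 for CD133-, and MAS5 intensities of 1344 for CD133+ and 2514 for CD133-. Both processings gave a log2 difference of -0.90, or 1.86-fold lower in CD133+ in RMA. Of all genes above the floor, 1.67% had an RMA difference as low and 6.78% a MAS5 difference as low. FOSB, a Fos subunit that is also rapidly induced, had RMA values of 7.25 for CD133+ and 7.65 for CD133-, and MAS5 intensities of 341.4 for CD133+ and 472.2 for CD133-. Its differences were -0.40 in RMA and -0.47 in MAS5. An RMA difference as low as that of FOSB was held by 10.9% of genes.

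The Jun subunits did not share one direction. JUN, the founding Jun subunit, had higher RMA values in CD133+ in each of its 4 probe sets. The probe set that represents it, 201464_x_at, had RMA values of 9.44 for CD133+ and 9.23 for CD133-, and MAS5 intensities of 3035 for CD133+ and 2478 for CD133-. The RMA differences of the 4 probe sets ran from 0.08 to 0.45 and their MAS5 differences from 0.29 to 0.37. The RMA difference of the representing probe set was 0.20, which is within the SD of 0.35 between probe sets. Suffixes _x_at and _s_at mark probe sets that can also detect other transcripts, and 213281_at, the one JUN probe set with neither, gave the lowest RMA difference of 0.08.

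JUNB, which acts more weakly than JUN on many AP-1 sites, had RMA values of 8.08 for CD133+ and 8.30 for CD133-, and MAS5 intensities of 759.7 for CD133+ and 1124 for CD133-. Its difference was -0.22 in RMA and -0.57 in MAS5, both within the SD between probe sets of that processing. JUND, the Jun subunit that most cells express without a stimulus, had RMA values of 10.08 for CD133+ and 9.95 for CD133- on probe set 203752_s_at, and MAS5 intensities of 5417 for CD133+ and 4410 for CD133-. Its RMA differences over 4 probe sets ran from 0.02 to 0.48. Its MAS5 differences ran from -0.17 to 2.55. The highest of these came from 229117_s_at, whose CD133- value was under the floor, with RMA values of 5.22 for CD133+ and 4.73 for CD133- and MAS5 intensities of 99.18 for CD133+ and 16.94 for CD133-. Every JUND probe set carries the _x_at or _s_at suffix.

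**Figure D3:**
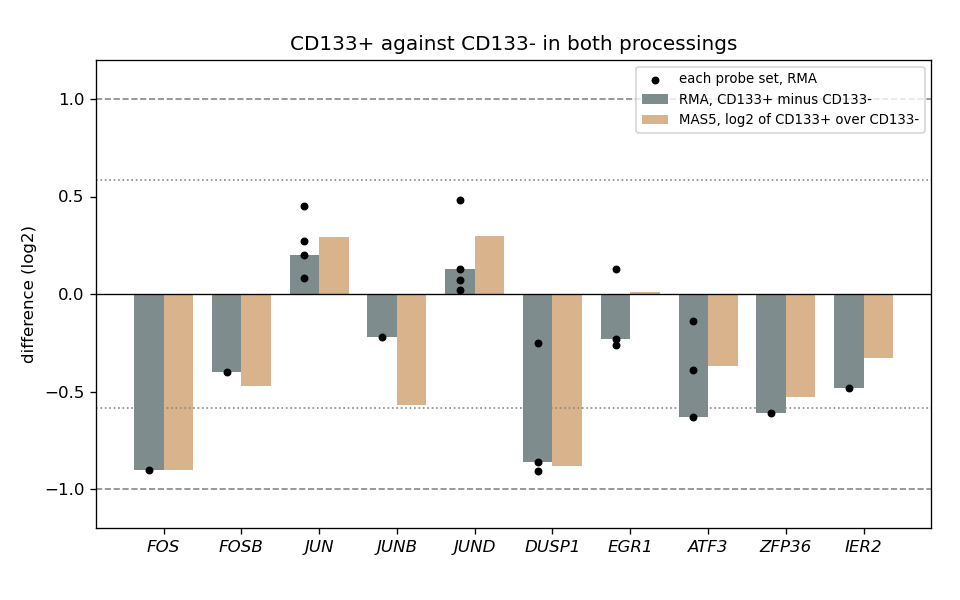
Log2 difference between CD133+ and CD133- for each member in RMA (grey bars) and MAS5 (tan bars), with black points for the RMA difference of each probe set; dotted lines mark 1.5-fold and dashed lines 2-fold. FOS and DUSP1 pass the dotted line in both processings, and no bar reaches the dashed line.

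EGR1 and ATF3 are transcription factors outside the Fos and Jun families. EGR1 encodes a zinc finger protein induced through serum response factor, and its promoter above holds 2 CArG boxes. Its representing probe set, 201694_s_at, had RMA values of 10.39 for CD133+ and 10.62 for CD133-, a difference of -0.23. The MAS5 intensities of the same probe set were 5800 in CD133+ and 5778 in CD133-, a log2 difference of 0.01. A second probe set, 227404_s_at, had an RMA difference of -0.26 and MAS5 intensities of 3379 in CD133+ and 4429 in CD133-, lower in CD133+ in both processings. The third, 201693_s_at, had RMA values of 7.33 for CD133+ and 7.20 for CD133- and MAS5 intensities of 755.8 for CD133+ and 837.4 for CD133-, so that its processings differed in sign. EGR1 therefore had no direction that held over its probe sets and processings.

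ATF3 encodes a stress-induced basic leucine zipper protein that can pair with Jun proteins. Its 3 probe sets were all lower in CD133+ in both processings. Probe set 202672_s_at had RMA values of 7.41 for CD133+ and 8.04 for CD133-, and MAS5 intensities of 692.8 for CD133+ and 895.0 for CD133-, or -0.63 in RMA and -0.37 in MAS5. Probe set 1554980_a_at had RMA values of 6.80 for CD133+ and 6.94 for CD133- and MAS5 intensities of 213.2 for CD133+ and 356.0 for CD133-. Probe set 1554420_at had RMA values of 4.97 for CD133+ and 5.36 for CD133-, the CD133+ value being under the floor, and MAS5 intensities of 27.02 for CD133+ and 112.6 for CD133-. The RMA differences thus ran from -0.63 to -0.14 and the MAS5 differences from -2.06 to -0.37, and the probe set with the largest RMA difference had the smallest one in MAS5.

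DUSP1 and ZFP36 encode the feedback arm. DUSP1 is a nuclear phosphatase that inactivates p38, JNK and ERK. Its representing probe set, 201041_s_at, had RMA values of 9.40 for CD133+ and 10.26 for CD133-, and MAS5 intensities of 3341 for CD133+ and 6151 for CD133-, which is 1.82-fold lower in RMA and 1.84-fold in MAS5. A second probe set, 201044_x_at, had RMA values of 6.19 for CD133+ and 7.10 for CD133-, a difference of -0.91, and MAS5 intensities of 143.2 for CD133+ and 316.4 for CD133-. The third, 226578_s_at, had RMA values of 5.85 for CD133+ and 6.10 for CD133-, a difference of -0.25, and MAS5 intensities of 129.0 for CD133+ and 221.1 for CD133-. All 3 were lower in CD133+ in both processings, with MAS5 differences from -1.14 to -0.78. An RMA difference as low as that of 201041_s_at was held by 1.95% of genes above the floor.

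ZFP36 encodes tristetraprolin, which binds AU-rich elements and speeds the decay of short-lived mRNAs. It had RMA values of 9.29 for CD133+ and 9.90 for CD133-, and MAS5 intensities of 2071 for CD133+ and 2989 for CD133- on its 1 probe set. Its differences were -0.61 in RMA and -0.53 in MAS5, and 4.58% of genes had an RMA difference as low. IER2, an immediate-early gene whose product is a nuclear protein, had RMA values of 10.08 for CD133+ and 10.56 for CD133-, and MAS5 intensities of 4824 for CD133+ and 6072 for CD133-. Its differences were -0.48 and -0.33. Both genes were lower in CD133+ in both processings. ZFP36 missed 1.5-fold in MAS5, and IER2 missed it in both.

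Over the 22 probe sets of the 10 members, 13 had an RMA difference below 0, against 49.9% of genes above the floor. The MAS5 difference was below 0 in 14, against 49.5% of genes. Shares over all probe sets were not computed, also not for the agreement in sign given next. The sign was the same in both processings in 19 of 22. The other 3 were 201694_s_at and 201693_s_at of EGR1 and 203751_x_at of JUND. The 5 members with several probe sets were JUN, JUND, DUSP1, EGR1 and ATF3, and in RMA all but EGR1 kept one sign over their probe sets.

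Of 14 other AP-1 and partner genes, 12 had a single-gene probe set and 10 were above the floor. The RMA differences of these 10 lay between -0.15 and 0.93. None was counted at 2-fold, against 2.25% of all genes higher and 1.09% lower. An RMA difference below 0 was found in 3, against 49.9% of all genes, and above 0 in 7, and the median was 0.04. FOSL1, the Fos-family gene of Fra-1, had RMA values of 6.63 for CD133+ and 5.88 for CD133- and MAS5 intensities of 325.4 for CD133+ and 220.9 for CD133-, log2 differences of 0.75 by RMA and 0.56 by MAS5. ATF7, a basic leucine zipper factor close to ATF2, had RMA values of 8.43 for CD133+ and 7.50 for CD133-. Its 0.93 in RMA and 1.03 in MAS5 passed 1.5-fold, as did 5.32% of all genes in that direction. The RMA differences of its 5 probe sets ran from 0.00 to 0.93. JDP2, which pairs with Jun proteins and represses AP-1 sites, had RMA values of 7.49 for CD133+ and 6.71 for CD133-, with log2 differences of 0.78 by RMA and 0.26 by MAS5, and its other probe set had 0.07 in RMA.

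Among the other immediate-early genes, 27 of 31 were found above the floor, 18 had an RMA difference below 0, against 49.9% of all genes, and the median was -0.16. The median in MAS5 was 0.01, and 12 of the 27 were below 0 in both processings, against 39.1% of all genes. None was counted at 2-fold, against 2.25% of all genes higher and 1.09% lower. At 1.5-fold in both processings 3 were lower in CD133+ and none higher, against 4.17% and 5.32% of all genes. TRIB1, a pseudokinase that directs proteins to degradation, had RMA values of 8.18 for CD133+ and 9.05 for CD133-, a difference of -0.87, although its 3 probe sets ran from -0.96 to -0.04. GADD45A, a stress and DNA damage gene, had RMA values of 8.88 for CD133+ and 9.71 for CD133- and log2 differences of -0.83 by RMA and -0.90 by MAS5. The third, KLF4, was chosen after its values were seen and had log2 differences of -0.70 by RMA and -0.83 by MAS5. CSRNP1, a nuclear protein gene, had -0.81 in RMA and 0.27 in MAS5. An RMA difference of -0.5 or lower was found in 7 of the 27, against 7.3% of all genes, and in 4 of the 10 members. NR4A2 and KLF10, chosen after their values were seen, were among the 7, with -0.57 and -0.71. MYC, IER3 and CCN1, also chosen after their values were seen, had RMA differences of -0.05, -0.10 and -0.08.

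**Figure D4:**
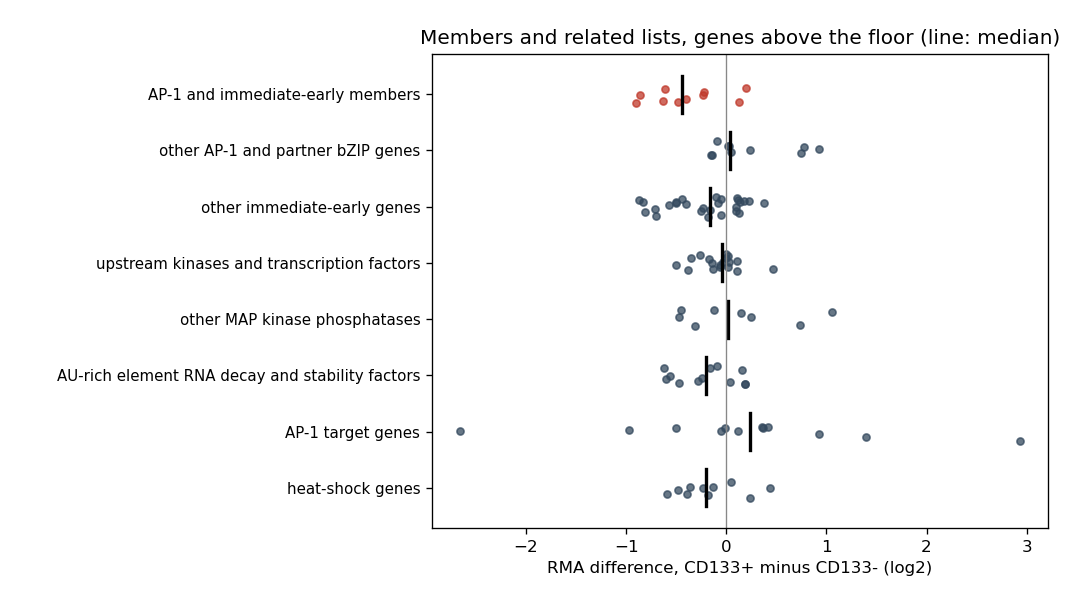
RMA difference (CD133+ minus CD133-, log2) of every gene above the floor in the 10 members (red) and in 7 related lists (dark), with a black line at each median. The member median is -0.44, and the medians of the other lists lie between -0.21 and 0.24.

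Of the kinases and factors upstream of these genes, none passed 1.5-fold in both processings, against 5.32% of all genes higher and 4.17% lower. Of 24 listed, 18 were found above the floor, and the median RMA difference was -0.05. The largest RMA differences were -0.50 for MAPK9, which encodes JNK2, -0.38 for MAP2K2, which encodes MEK2, and 0.47 for ELK3, a ternary complex factor that works with serum response factor. In MAS5 larger differences were found, chosen after their values were seen: -1.02 for MAPK3, which encodes ERK1, 0.91 for RPS6KA4, which encodes the kinase MSK2, and -0.81 for MAP2K4, which encodes a JNK kinase. The RMA differences of these 3 were 0.11, 0.11 and -0.17. The other MAP kinase phosphatases went both ways in RMA, with 4 of 8 below 0, against 49.9% of all genes, 4 above 0 and a median of 0.02. DUSP5, a nuclear ERK phosphatase, had RMA values of 8.89 for CD133+ and 7.83 for CD133-, and its log2 differences of 1.06 by RMA and 0.96 by MAS5 missed 2-fold in MAS5. DUSP4, a nuclear MAP kinase phosphatase, had log2 differences of 0.74 by RMA and 0.21 by MAS5, with 0.74 to 1.51 in RMA over its 3 probe sets, and DUSP9 had -0.47 and -0.43.

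All 12 factors that act on AU-rich mRNAs were above the floor, with 8 below 0 in RMA, against 49.9% of all genes, 1 lower at 1.5-fold, against 4.17%, and a median of -0.20. ZFP36L1 and ZFP36L2, the paralogs of ZFP36 and chosen after their values were seen, differed by 0.16 and 0.19 in RMA and by 0.49 and 0.39 in MAS5, opposite in sign to ZFP36. The largest differences were those of CCR4-NOT deadenylase subunits, -0.62 for CNOT8, -0.60 for CNOT6 and -0.56 for CNOT7, and CNOT6 passed 1.5-fold in both processings. The other probe sets of CNOT7 reached 0.09 in RMA.

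AP-1 target genes lay on both sides. Of 17 listed, 12 were found above the floor. At 2-fold 2 were higher and 1 was lower, against 2.25% and 1.09% of all genes, and the median was 0.24. TIMP1, which encodes a metalloproteinase inhibitor, had RMA values of 8.74 for CD133+ and 5.81 for CD133- and was 7.61-fold higher. PLAU, the urokinase gene, had RMA values of 6.04 for CD133+ and 4.64 for CD133-, the CD133- value being under the floor, and RMA differences of 0.52 and 1.40 over its 2 probe sets. SPP1, which encodes osteopontin, had RMA values of 5.83 for CD133+ and 8.49 for CD133- and was 6.32-fold lower. The RMA differences of its 2 probe sets were -2.66 and -0.58. At 1.5-fold in both processings 3 were higher and 2 lower, against 5.32% and 4.17% of all genes. Here CXCL8, the interleukin-8 gene, was also higher and HMOX1, the heme oxygenase gene, also lower. Both were chosen after their values were seen. HMOX1 had RMA values of 8.64 for CD133+ and 9.61 for CD133-. The collagenase and stromelysin genes MMP1, MMP3 and MMP10, also chosen afterwards, were under the floor in both populations.

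Most heat-shock genes encode chaperones or co-chaperones, and cell stress can induce them along with immediate-early genes. The list also held HSF1, which encodes a transcription factor of these genes and is part of the counts below. Of 14 listed, 10 were found above the floor, 7 had an RMA difference below 0, against 49.9% of all genes, and the median was -0.21. At 2-fold none was counted, against 2.25% of all genes higher and 1.09% lower. In MAS5 the median was -0.07. HSPH1, an HSP110 chaperone, had RMA values of 9.66 for CD133+ and 10.25 for CD133- and was the 1 gene lower at 1.5-fold in both processings, against 4.17% of all genes, with RMA differences from -0.91 to 0.45 over its 3 probe sets. DNAJB1, an HSP40 co-chaperone, had log2 differences of -0.48 by RMA and -0.53 by MAS5. HSPB1, a small heat-shock protein gene, had RMA values of 12.38 for CD133+ and 11.94 for CD133-, a difference of 0.44.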

How the data were processed

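The series held 4 samples, 1 CD133+ and 1 CD133- population in each of 2 processings, grouped by their titles. Per the labels, total RNA came from a Trizol extraction and was labelled with biotin by an Ambion kit. The MAS5 columns hold intensity values on a linear scale that the authors deposited as MAS5 output. The RMA columns are RMA expression on the log2 scale as deposited. The submitters' processing notes name GCOS, MAS5 and RMA; the sources used here give neither versions nor a genome build. Trimmed means of 500.1 in both MAS5 columns are the form of global scaling.

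Of 54675 probe sets, 41097 had 1 gene in GEO's platform annotation, 1801 several and 11777 none or no entry. Symbols were updated through gene IDs in a RefSeq table of GRCh38.p14 for 41043. Only single-gene probe sets were named. Differences were computed with Python 3.11.15 and pandas 2.3.3 by subtracting the CD133- from the CD133+ RMA value and as the log2 of the MAS5 ratio of CD133+ over CD133-, with no pseudocount. No statistical test was run, since there was 1 array per population in each processing, and the number of arrays limits the precision. The code of the counting rule was run on simulated data as a self-test only. How the rule performs at the spread of these arrays was not tested. Named genes were the 10 members, PROM1 and, in each of the 7 related lists, the members counted at 2-fold and the 3 over the floor that differed most in RMA; for the cell type markers, which were described by list, a few genes are named as examples chosen after their values were seen. The members, lists and rules were chosen with earlier results of these data known. Alternatives were MAS5 alone, a MAS5 pseudocount of 50, the median over probe sets, no _x_at or _s_at probe sets, median centring, other floors and RMA alone. Likeness of pattern to other genes was not computed, because 2 populations give no pattern.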

Additional observations from a re-analysis of the deposited data

How the results depend on the processing

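No paired analysis was possible because each group had 1 sample. The count of members lower in CD133+ at 1.5-fold was 2 with both processings required, 4 in RMA alone, where ATF3 and ZFP36 joined FOS and DUSP1, and 1 without _x_at and _s_at probe sets, which left 7 of 10 members and removed DUSP1, EGR1 and JUND. The counts at 2-fold were 0 in each direction under all 8 alternatives. The member median stayed between -0.44 and -0.38 under the 7 alternatives that recompute it. Of 47 recomputed differences of single members, 46 stayed within 0.35 of the main value, and that of ATF3 was -0.14 without _x_at and _s_at probe sets. The limit was the RMA SD between probe sets, also for MAS5 values, whose own SD was 0.79. The main differences of JUN, JUNB, JUND and EGR1 were smaller in size than 0.35, so their sign could change within the limit. That of EGR1 was -0.23 in RMA and 0.01 in MAS5 alone. The 49 recomputed medians of other lists also stayed within 0.35, although that of AP-1 target genes was -0.04 without _x_at and _s_at probe sets and that of the other MAP kinase phosphatases was -0.18 in MAS5 alone. Part of this stability was fixed in advance. The main medians of the other lists lay between -0.21 and 0.24, all smaller in size than 0.35. Such a median could lose its sign and still count as stable. That of the other immediate-early genes went from -0.16 in RMA to 0.01 in MAS5 alone. Median centring subtracted 0.0 and so repeated the main values. All 10 members passed the other floors, which therefore could not change their counts or median. The 5 members with 1 probe set (FOS, FOSB, JUNB, ZFP36 and IER2) could not move with the choice of probe sets. Detection calls were not used here, so the floor stands in for signal over background.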
